A study of Bos taurus with 6 samples.

Results

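KLF13 (ENSBTAG00000051090), KLF16 (ENSBTAG00000038055), ZNF771 (ENSBTAG00000021222) and ZNF787 (ENSBTAG00000002904) are 4 of the 29154 genes listed in each library, and they are described here as a group of C2H2 zinc finger transcription factor genes. They were chosen from the study's own list of genes up-regulated by the miR-29c inhibitor, selected on the fold change and P value of this same comparison, so that their higher level is what chose them. The tests given below on the same comparison therefore describe the genes and support nothing. The cells were MAC-T, an established bovine mammary epithelial cell line, taken from a frozen stock and grown in wells of a single culture plate. Wells of the negative control group received 100 nM NC inhibitor, and wells of the experimental group received 100 nM miR-29c inhibitor. All cells were collected 48 h later for mRNA sequencing with oligo(dT) enrichment. Both groups are called the control and the inhibited group below. The libraries analysed were replicates 1 and 2 of each, and replicate 3 was in neither case analysed here.

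C2H2 zinc finger proteins hold zinc between cysteine and histidine residues, and strings of such fingers read DNA. The Kruppel-like factors, to which KLF13 and KLF16 belong, carry their fingers at the C-terminal end and bind GC-rich and CACCC elements, sites that they share with the SP factors. KLF13 and KLF16 lie in the same branch of this family, whose members can repress transcription through the SIN3A co-repressor, and KLF13 is also known as an activator of the chemokine gene CCL5 in T lymphocytes. ZNF771 and ZNF787 are C2H2 zinc finger proteins outside the Kruppel-like family whose functions are little described. MicroRNAs such as miR-29c lower the level or translation of mRNAs that hold matching sites, and an inhibitor is an oligonucleotide that binds the microRNA and keeps it from them. The miR-29 family is best known for acting on collagen and DNA methyltransferase mRNAs.

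ZNF771 is the member for which the study designed a qRT-PCR assay, and its primers are shown because they define the amplicon of 141 bp that stood for the gene there. They are written 5′ to 3′.
ZNF771 forward: gctgagccgccgtttcttt
ZNF771 reverse: cctgccagtcccatcctattc
The forward primer of 19 bases has a GC content of 57.9%, and the reverse primer of 21 bases has 57.1%. The oligonucleotides of the miR-29c assay are shown because this microRNA is what the inhibitor was made against, and the counts hold no measurement of it. In the reverse transcription primer the capitals mark the 8 bases that follow the stem, where the 14 bases at the 5′ end meet their reverse complement, and these 8 bases are the part left to pair with the 3′ end of the microRNA.
miR-29c reverse transcription: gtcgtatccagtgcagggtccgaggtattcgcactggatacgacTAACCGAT
miR-29c forward: ggcgtgtagcaccatttgaa
No qRT-PCR value was analysed here.

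All 4 symbols were found in the RefSeq gene table of assembly ARS-UCD2.0, where each is a protein-coding gene. RefSeq gives 1 transcript for KLF13 and 1, a predicted model, for KLF16, 2 for ZNF771 and 4 for ZNF787. In that assembly the genes lie on 4 different chromosomes, so that no member neighbours another, and 0 annotated genes overlap any of them. KLF13 stands between TRPM1 and APBA2, KLF16 between REXO1 and ABHD17A, and ZNF771 between SEPTIN1 and DCTPP1, counting protein-coding genes. ZNF787 stands between NLRP5 and ZNF444, the latter itself a gene of the ZNF naming family. The study names UMD3.1 as the genome of its alignment, so that positions of the table are not given. Reads from the conserved zinc finger parts of other family members could have been counted on these genes, which was not tested.

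The counts on genes summed to between 14479278 and 16213226 in the 4 libraries, and scaling factors of the TMM method lay between 0.992 and 1.01. Levels below are CPM, counts scaled to these adjusted library sizes, and the interval beside a count is the 95% exact Poisson interval, which covers counting error only. Each replicate was kept as a sample of its own, since replicates differed by more than the sampling noise. The identifiers of the files are paired with symbols only for the 41 named genes of the study's list, so that epithelial markers such as KRT18 could not be looked up and the label of the cells was not checked. In bulk RNA a higher level per cell and more cells that express a gene cannot be told apart.

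KLF13, the Kruppel-like factor known from T lymphocytes, had 15 counts (8.40 to 24.7) in control replicate 1 and 26 counts (16.98 to 38.1) in control replicate 2. In the inhibited libraries it had 49 counts (36.3 to 64.8) in replicate 1 and 75 counts (59.0 to 94.0) in replicate 2. Both inhibited libraries stood above both control libraries, as they did in 17.6% of the 20300 genes tested. Replicate 2 was the higher one in each group. The level was 1.32 ± 0.404 CPM in the control group and 4.09 ± 0.984 CPM in the inhibited group (SD, n = 2 libraries each). The fitted level was 3.08-fold higher in the inhibited group, or 1.62 on the log2 scale (SE 0.28). Taking each inhibited library against each control library, the fold ran from 2.12 to 4.64, the widest run of the 4 genes.

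KLF16, from the same branch of the family, had 20 counts (12.2 to 30.9) and 18 counts (10.7 to 28.4) in control replicates 1 and 2. It had 55 counts (41.4 to 71.6) and 45 counts (32.8 to 60.2) in inhibited replicates 1 and 2. The groups did not overlap, and here replicate 1 was the higher one in each group, the reverse of KLF13. The level was 1.24 ± 0.187 CPM in the control group and 3.34 ± 0.662 CPM in the inhibited group (SD, n = 2 libraries each). This was a 2.68-fold higher level, or 1.42 on the log2 scale (SE 0.30), and the fold ran from 2.09 to 3.43 between single libraries. The interval of the lower inhibited library, 2.09 to 3.84 CPM, overlapped that of the higher control library, 0.839 to 2.12 CPM.

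ZNF771, the member taken for qRT-PCR, had 144 counts (121 to 170) and 150 counts (127 to 176) in control replicates 1 and 2. In the inhibited group it had 316 counts (282 to 353) in replicate 1 and 322 counts (288 to 359) in replicate 2. The libraries of a group lay close together and the groups far apart, as the plot of levels in each library shows. The fitted level was 2.22-fold higher in the inhibited group, and the fold ran only from 2.08 to 2.37 between single libraries. The coefficient of variation of its CPM was 4.79% in the control group and 4.45% in the inhibited group, the lowest of the 4 genes in each group.

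ZNF787, the other gene outside the Kruppel-like family, had 130 counts (109 to 154) and 109 counts (89.5 to 131) in control replicates 1 and 2. It had 221 counts (193 to 252) and 208 counts (181 to 238) in inhibited replicates 1 and 2. The groups did not overlap, and replicate 1 was the higher one in each group. The level was 7.82 ± 1.56 CPM in the control group and 14.3 ± 1.44 CPM in the inhibited group (SD, n = 2 libraries each). The fitted level was 1.83-fold higher, or 0.87 on the log2 scale (SE 0.15), the smallest change of the 4 genes. Between single libraries the fold ran from 1.49, for inhibited replicate 2 over control replicate 1, to 2.28.

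**Figure D1:**
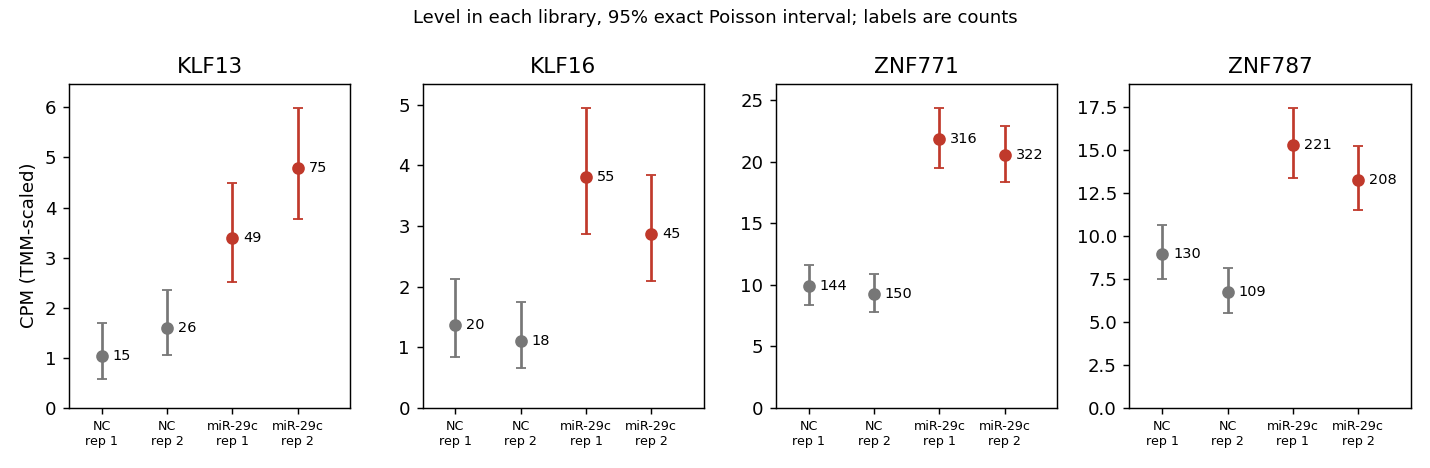
Level of each gene in each library in CPM on TMM-scaled library sizes (y axis, a scale of its own in each panel) for NC inhibitor (grey) and miR-29c inhibitor (red) replicates 1 and 2; bars are 95% exact Poisson intervals and labels are the counts. In each gene both red points lie above both grey points, from 49 and 75 against 15 and 26 counts in KLF13 to 221 and 208 against 130 and 109 counts in ZNF787. The genes were chosen for this difference, and 17.6% of the 20300 genes tested had both inhibited libraries above both control libraries.

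As a group, the 4 genes summed to 309 and 303 counts in control replicates 1 and 2 and to 641 and 650 counts in inhibited replicates 1 and 2. The summed level was 19.9 ± 1.81 CPM in the control group and 42.9 ± 2.06 CPM in the inhibited group (SD, n = 2 libraries each), a 2.15-fold difference. The higher level of each gene in both inhibited libraries is no sign of its own, since it chose the genes, and 17.6% of the 20300 genes tested had both inhibited libraries above both control libraries. The quasi-likelihood test of edgeR called 4 of the 4 genes higher at an adjusted p below 0.05, and it called 0.901% of all genes higher. The genes were chosen for this difference, so that nothing is read from these calls. At the study's threshold, an unadjusted P below 0.05 with a log2 fold change above 1, edgeR called 3 of the 4, all but ZNF787, where 0.429% of all genes were called higher. The DESeq2 Wald test, the tool of the study, also called 3 of the 4 at that threshold, where 0.138% of all genes were called higher. At an adjusted p below 0.05 it called 1 of the 4, ZNF771, where 0.269% of the 16364 genes with an adjusted p were called higher.

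The fold change threshold of the study ran close to ZNF771 and ZNF787. On the fit to these libraries, ZNF771 lay just inside a log2 fold change of 1 at 1.15 (SE 0.13), and ZNF787 lay just outside it at 0.87. The choice of the genes rested on all replicates of the study, replicate 3 included. Genes outside the list carry no symbol here, so that zinc finger genes just below the threshold cannot be named. Of the 12785 genes with at least 100 counts over the 4 libraries, 139 had a log2 fold change above 0.5 and up to 1, among them ZNF787. A further 9 had one above 1 and up to 1.5, among them KLF16 and ZNF771, and 3 had one above 1.5 and up to 2, among them KLF13. Above 2 there were 2 genes and no member. Set against genes with at least as many counts, KLF13 ranked 3 of 12058 by log2 fold change, KLF16 ranked 6 of 12307, ZNF771 ranked 3 of 8368 and ZNF787 ranked 5 of 9296. High ranks follow from the choice of the genes by fold change, so that nothing is read from them.

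**Figure D2:**
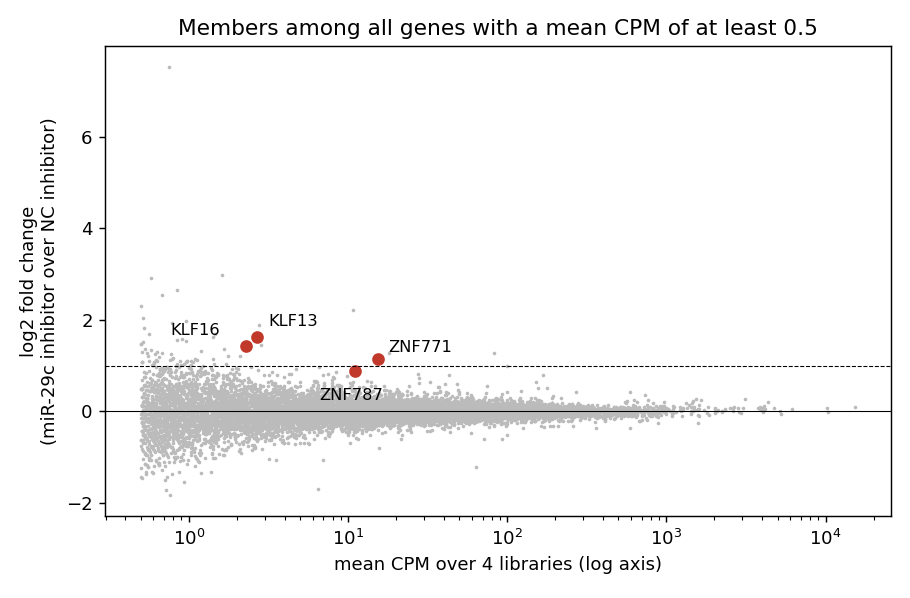
Log2 fold change of the miR-29c inhibitor over the NC inhibitor group (y axis) against the mean CPM over the 4 libraries (x axis, log scale) for all genes with a mean CPM of at least 0.5 (grey), with the 4 zinc finger genes in red; the dashed line is a log2 fold change of 1. KLF13 at 1.62, KLF16 at 1.42 and ZNF771 at 1.15 lie above the dashed line and ZNF787 at 0.87 below it. All lie at the upper edge of the genes of their level, which follows from their choice by fold change.

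The place of the genes within a library restates the same difference in CPM and moved with it. By CPM, KLF13 stood at percentiles 33.5 and 36.7 of the genes tested in the control libraries and at 42.4 and 45.2 in the inhibited libraries. ZNF771 stood at percentiles 52.9 and 52.0 in the control libraries and at 64.5 and 63.4 in the inhibited libraries. These percentiles rest on CPM without a correction for transcript length, so that they place a gene against itself in another library and not one member against another.

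How far replicates of the same group differed was set beside genes with a similar count, within a factor of 1.5. The P value behind the choice of the genes used this spread too, so that it is given as a description. KLF13 was 1.55-fold higher in replicate 2 than in replicate 1 of the control group (95% exact binomial interval 0.794 to 3.16) and 1.41-fold higher in the inhibited group (0.971 to 2.06). The intervals of KLF13 held a ratio of 1. Of the similar genes, 24.1% in the control group and 13.0% in the inhibited group had a larger difference than KLF13. KLF16 had a ratio of replicate 2 to replicate 1 of 0.807 (0.403 to 1.61) in the control group and 0.754 (0.497 to 1.14) in the inhibited group, and 58.1% and 26.1% of similar genes differed more. For ZNF771 the ratios were 0.934 (0.739 to 1.18) and 0.939 (0.801 to 1.10), and most of the similar genes, 64.3% and 56.3%, differed more. ZNF787 had the only interval that left out 1, with a ratio of 0.752 (0.578 to 0.978) between the control replicates, a difference passed by 10.04% of 1832 similar genes. In the inhibited group its ratio was 0.867 (0.714 to 1.05).

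**Figure D3:**
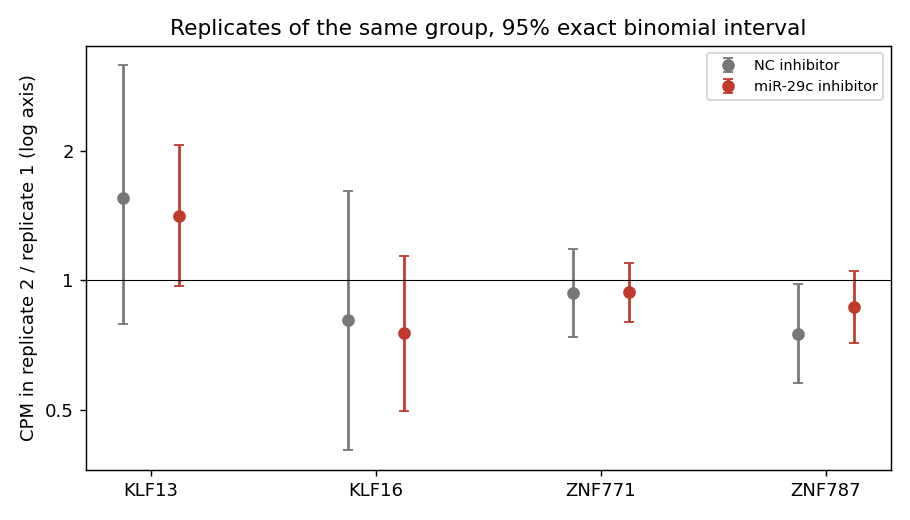
Ratio of the CPM in replicate 2 to that in replicate 1 of the same group (y axis, log scale) for each gene in the NC inhibitor (grey) and miR-29c inhibitor (red) groups, with 95% exact binomial intervals for counting error; the line marks a ratio of 1. KLF13 lies above the line in both groups (1.55 and 1.41), the other genes lie below it, and the interval of ZNF787 in the NC inhibitor group ends at 0.978.

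The Kruppel-like factors, which had fewer counts, had the larger errors. The standard error that the summed counts of each group alone give the log2 fold change was 0.26 for KLF13, 0.27 for KLF16, 0.10 for ZNF771 and 0.12 for ZNF787. The standard errors from edgeR, which add a spread between libraries, were 0.28, 0.30, 0.13 and 0.15 in the same order. That spread was estimated over genes, since the fit had infinite prior degrees of freedom. A gene's own replicates had no weight of their own in it, so that these errors do not reflect how far its replicates differed. The DESeq2 Wald test on the same libraries gave larger standard errors, 0.48, 0.50, 0.19 and 0.23 in the same order.

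The make-up of the summed counts, which does not depend on library size, showed how the genes moved against each other. ZNF771 took 46.6% of the 4-gene sum in control replicate 1 (40.9% to 52.3%, the 95% exact Clopper-Pearson interval) and 49.5% in replicate 2 (43.7% to 55.3%). In inhibited replicates 1 and 2 it took 49.3% (45.4% to 53.2%) and 49.5% (45.6% to 53.5%), so that its share was much the same in every library. ZNF787 took 42.1% (36.5% to 47.8%) and 36.0% (30.6% to 41.7%) in the control libraries and 34.5% (30.8% to 38.3%) and 32.0% (28.4% to 35.7%) in the inhibited libraries. Its share was lower in both inhibited libraries than in both control libraries, and the intervals overlapped except between control replicate 1 and inhibited replicate 2. KLF13 took 4.85% and 8.58% in control replicates 1 and 2 and 7.64% and 11.5% in inhibited replicates 1 and 2, so that the groups overlapped. KLF16 took between 5.94% and 6.47% in the control libraries and between 6.92% and 8.58% in the inhibited libraries. A share reflects transcript length as well as level, so that it compares libraries and not genes.

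**Figure D4:**
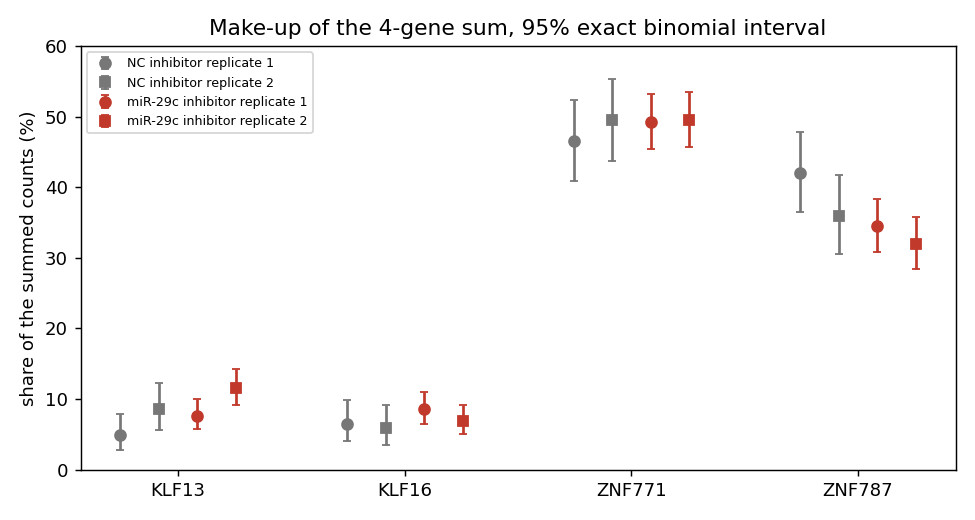
Share of each gene in the summed counts of the 4 genes (y axis, %) in NC inhibitor (grey) and miR-29c inhibitor (red) replicates 1 (circles) and 2 (squares), with 95% exact Clopper-Pearson intervals. The share of ZNF771 stays between 46.6% and 49.5%, while that of ZNF787 is highest in NC inhibitor replicate 1, at 42.1%, and lowest in miR-29c inhibitor replicate 2, at 32.0%.

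Ratios of counts between members were also taken within each library. The ratio of ZNF771 to ZNF787 was 1.11 and 1.38 in control replicates 1 and 2 and 1.43 and 1.55 in inhibited replicates 1 and 2. In the same order, KLF16 to ZNF771 was 0.139 and 0.12, then 0.174 and 0.140. KLF16 to ZNF787 was 0.154 and 0.165, then 0.249 and 0.216. The groups did not overlap for these pairs, but their intervals for counting error did. They overlapped for KLF13 to ZNF771 and for KLF13 to ZNF787. The ratio of KLF13 to KLF16 was 0.75 and 1.44 in the control libraries and 0.891 and 1.67 in the inhibited libraries. The groups overlapped for this pair, and the ratio was higher in replicate 2 than in replicate 1 of both groups.

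The pattern over the 4 libraries was set against all 13479 genes with a mean CPM of at least 1, by the Euclidean distance of log2 CPM centred on each gene's mean. Among the members, KLF16 and ZNF771 were the closest pair, at a distance of 0.33, and ZNF771 and ZNF787 followed at 0.36. KLF13 and ZNF787 were the farthest apart, at 1.11. Only 10 other genes with a symbol reached this level, and all come from the study's list, so that their likeness follows in part from the same choice. The gene with a symbol most like ZNF771 was SEM1, a subunit of the proteasome, at 0.20, with 2 of the 13479 genes closer, members included. Outside the members, SEM1 was also the named gene most like KLF16, at 0.34. Whether its counts share reads with a second locus of this name was not tested. For KLF13 it was SFT2D3, a gene of the SFT2 family of vesicle transport proteins, at 0.36 with 1 gene closer. Its counts were 11 and 18 in control replicates 1 and 2, and 33 and 40 in inhibited replicates 1 and 2. OVCA2, a serine hydrolase, and TMEM160, a transmembrane protein, followed for KLF13 at 0.52 and 0.66. For ZNF787 the most like named gene outside the members was UBE2S, a ubiquitin-conjugating enzyme of the anaphase-promoting complex, at 0.44. For this pair 67 genes were closer, members included. With 4 libraries in 2 groups such distances mostly repeat the size of the difference between groups.

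With the fit changed, each of the 4 genes kept a positive log2 fold change, as the plot of fold changes by setting shows. Over all settings it lay between 1.35 and 1.98 for KLF13, between 1.22 and 1.62 for KLF16, between 1.09 and 1.20 for ZNF771 and between 0.67 and 1.09 for ZNF787. With all 4 libraries kept, ZNF771 was called at an adjusted p below 0.05 in every setting. The genes called higher there ran from 32 of 20300 with the bias-adjusted quasi-likelihood fit to 216 of 20300 with the replicate block. The members were chosen for this difference, so that nothing is read from their calls. KLF16 was no longer called without control replicate 2, at a log2 fold change of 1.27, or without inhibited replicate 1, at 1.22. ZNF787 passed a log2 fold change of 1 only without control replicate 1, at 1.09, and had its lowest value without control replicate 2, at 0.67. For KLF13 the highest value, 1.98, was the one without control replicate 2, and the lowest, 1.35, was the one without inhibited replicate 2. KLF13, KLF16 and ZNF787 were not called at an adjusted p below 0.05 by the DESeq2 Wald test or by a bias-adjusted quasi-likelihood fit. Their fold changes were nearly the same there, and their standard errors by DESeq2 were larger, at 0.48, 0.50 and 0.23. DESeq2 called 44 of the 16364 genes with an adjusted p higher, and the bias-adjusted fit called 32 of 20300 higher.

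**Figure D5:**
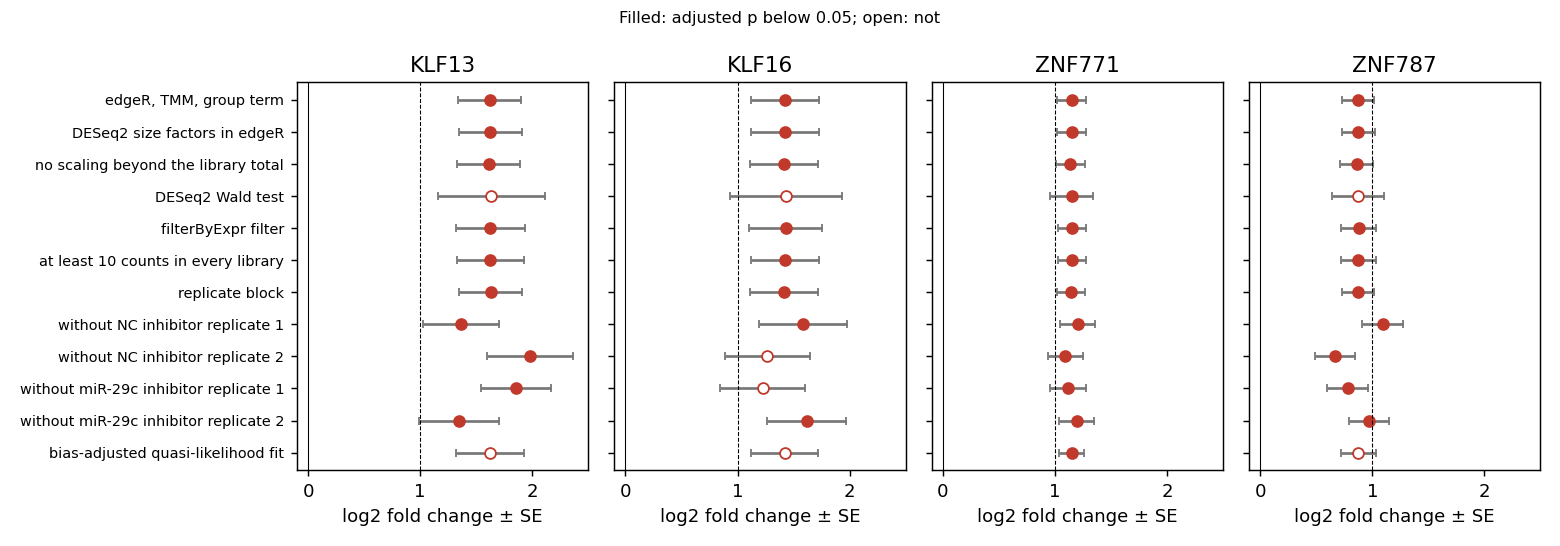
Log2 fold change of each gene with its standard error (x axis) under each setting of the fit (y axis); filled points had an adjusted p below 0.05 and open points did not, and the dashed line marks a log2 fold change of 1. All points lie above 0, those of ZNF771 are filled in every setting, and those of ZNF787 pass the dashed line only without NC inhibitor replicate 1. The genes were chosen for this difference, so that nothing is read from the filled points.

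Of the members, 0 are among the TargetScan predictions for miR-29c, matched by symbol, which were made without these counts. The study reports that its up-regulated genes hold no predicted target, so that this was known beforehand and is not particular to the members. The predictions do hold 17 other genes of the KLF, SP or ZNF naming families, among them KLF4, KLF12 and SP1, but none of these is paired with an identifier in the files. Of the 27 symbols KLF1 to KLF18 and SP1 to SP9, 26 are listed by RefSeq, and the 2 that could be found in the files are members. RefSeq lists 280 genes named ZNF and a number, and of these, too, the 2 found in the files are members. How other zinc finger genes, the SIN3 co-repressors or known miR-29 targets behaved was therefore not analysed here, and nothing here sets these 4 genes apart from other genes of their families.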

How the data were processed

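mRNA of MAC-T cells was sequenced, and groups and replicate numbers were taken from the sample titles. Per the labels and the study's methods, reads that passed quality filters were aligned by the authors to UMD3.1 with HISAT2, and featureCounts gave the reads per gene. What the authors deposited are these raw counts, as whole numbers. The study links its genome to a dated Ensembl archive. Tool versions, the annotation used for counting and whether counting used strand are not given in the sources. Symbols were paired with identifiers through the study's list of changed genes, of which only identifiers and symbols were used.

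The members and the gene lists were chosen with earlier results of these data known. Genes with at least 1 count in total were compared with edgeR 4.0.16 (R 4.3.3, limma 3.58.1) by TMM scaling, a group term and the quasi-likelihood test, Benjamini-Hochberg adjusted over all 20300 genes. DESeq2 1.42.0 was run as an alternative, and its missing adjusted p values were left missing. Standard errors (SE) were taken from the F statistic, as the log2 fold change over its square root. The main fit had infinite prior degrees of freedom, and the bias-adjusted quasi-likelihood fit had 9.12. The script was tested on simulated data with 200 changed genes and the same dispersion in all genes. That simulation could not test how the fit treats genes that differ in their spread. Intervals used scipy 1.17.1. Likeness used log2(CPM + 0.1). Replicates are wells of a plate, so that the spread between them may be technical.

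Genes named are the members, listed genes fixed beforehand by symbol, and for each member the 3 genes with a symbol most like it outside the members. Of these 3 the closest is given with its distance. The lists (KLF and SP family, ZNF genes, SIN3 and HDAC co-repressors, known and predicted miR-29 targets, cell type markers) had no identifier outside the members and gave no values. No gene sequence was used, so that GC content was not analysed.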

Additional observations from a re-analysis of the deposited data

How the results depend on the processing

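In all settings run the 4 zinc finger genes kept a positive log2 fold change. With all 4 libraries kept, each value moved by less than its standard error. Leaving out a library moved KLF13 most, from 1.62 to between 1.35 and 1.98, and ZNF787 from 0.87 to between 0.67 and 1.09, in each case up to more than the standard error of 0.28 and 0.15. With each library left out, the log2 ratio of the summed members ran from 1.02 to 1.20. The number of genes called at an adjusted p below 0.05 depended on the test, and it differed with the genes kept. It was 297 of 20300 genes with edgeR, and 46 of the 16364 with an adjusted p with the DESeq2 Wald test. With at least 10 counts in every library it was 194 of 13584 genes. It was 34 of 20300 with the bias-adjusted quasi-likelihood fit, which was chosen after seeing the data. With each library left out it ran from 72, without miR-29c inhibitor replicate 2, to 289, and it was 161 without NC inhibitor replicate 1. A group left with a lone library is then assumed to vary like the other group. The cause was not tested. With the replicate block the number called was 352, and 216 of the 20300 genes tested were called higher. All 4 members were among these, and nothing is read from that, since they were chosen for this difference. The correlation of the deviations of same-numbered libraries was 0.0115 over 14289 genes. Such a value over all these genes cannot show whether some of them differed with the replicate number. By CPM, each of the 4 members was higher in the same-numbered replicate of both groups. The intervals of these replicate ratios held a ratio of 1, except that of ZNF787 in the control group. The share of all genes that did so was not taken, so that nothing is read from this. An offset for GC content, alone or with the block, and counts of other KLF, SP and ZNF genes were not run, since neither GC content nor symbols could be paired with the identifiers. The values of KLF13 and KLF16 rest on 15 to 26 counts in each control library and on 2 libraries per group. Counting error alone gives their log2 fold changes standard errors of 0.26 and 0.27.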
